A study of Homo sapiens with 4 samples.

Results

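The regions described here were the dense chains of BrdU sites on the human autosomes. A BrdU peak is a short stretch of DNA where incorporation of the thymidine analogue BrdU was enriched over Input DNA. The deposited list held 33295 peaks. Peaks that overlapped or touched were merged into sites, and sites of chromosomes 1 to 22 that lay at most 10 kb apart, edge to edge, were joined into a chain. All sites in chains of 10 or more were kept. The members were thus selected on the measured positions of the peaks, through the gap between sites and the number of sites in a row. This gave 212 chains with 3293 of the 25287 autosomal sites, or 13.0%. These sites were built from 3972 peaks. The number of sites, their spacing and the density of a chain follow from this choice, and are given as descriptions, with no test.

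The peaks came from BJ-hTERT cells, human skin fibroblasts immortalized with telomerase, synchronized by serum starvation and pulsed with BrdU before they were collected 16, 19, 22, 24 and 28 h after release. The peaks of the 5 timepoints stood in one list, and the BrdU-Seq had 2 repeats. The list named neither timepoint nor repeat, so no value could be split by them and no comparison between samples was possible. Chains and sites are not replicates, since sites of one chain share their region. The RNAPII and PCNA ChIP-Seq samples collected at 14 and 16 h, 1 sample each, were not analysed here. The list gave positions only, so the depth of the libraries and the strength of a peak were unknown.

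When replication forks move through a region at an even pace, averaging over many cells spreads the incorporated BrdU evenly. Where forks slow down or pause often at the same position, newly made DNA collects there and a peak is called. Obstacles known to slow forks include transcription complexes, DNA-protein barriers and repeats that fold into secondary structures. Fork pausing is of interest inside genes because RNA polymerase II and the replisome use the same template. A chain is a stretch in which many BrdU peaks were called one after another. Whether each of them was a pausing position was not tested here.

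Sequences from 6 chain sites are given on the plus strand of hg38, each cut to at most 300 bases around the middle of the site. The first pair came from the chain with the most sites, in a region without a coding gene. The CALD1 and COL5A2 sites were the deepest, then the widest, in each of these genes. In these 4 and in the chr21 site, capitals mark every AATGG or its reverse complement CCATT, the pentamer of the tandem arrays described further on. In the chr2 site, capitals mark the opening copy of a tandem repeat.
chr12 chain, deepest site, chr12:65705607-65705906: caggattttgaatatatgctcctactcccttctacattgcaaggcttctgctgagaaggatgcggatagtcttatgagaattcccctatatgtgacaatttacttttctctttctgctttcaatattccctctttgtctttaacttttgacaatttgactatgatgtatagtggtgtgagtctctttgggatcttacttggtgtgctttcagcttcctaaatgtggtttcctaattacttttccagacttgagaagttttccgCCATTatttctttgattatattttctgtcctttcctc
chr12 chain, median-positioned site, chr12:65635192-65635491: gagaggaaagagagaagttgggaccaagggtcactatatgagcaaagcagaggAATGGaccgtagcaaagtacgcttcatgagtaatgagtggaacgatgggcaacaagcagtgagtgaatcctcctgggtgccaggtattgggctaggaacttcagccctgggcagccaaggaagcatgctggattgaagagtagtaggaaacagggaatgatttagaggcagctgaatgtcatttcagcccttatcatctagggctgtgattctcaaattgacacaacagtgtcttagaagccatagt
CALD1 site, chr7:134793393-134793692: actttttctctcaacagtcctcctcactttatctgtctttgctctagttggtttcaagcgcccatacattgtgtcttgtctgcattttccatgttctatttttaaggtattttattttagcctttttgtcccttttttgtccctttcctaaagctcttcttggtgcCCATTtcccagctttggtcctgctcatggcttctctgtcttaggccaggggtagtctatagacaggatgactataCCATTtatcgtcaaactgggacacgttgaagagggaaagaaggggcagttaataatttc
COL5A2 site, chr2:189202413-189202700: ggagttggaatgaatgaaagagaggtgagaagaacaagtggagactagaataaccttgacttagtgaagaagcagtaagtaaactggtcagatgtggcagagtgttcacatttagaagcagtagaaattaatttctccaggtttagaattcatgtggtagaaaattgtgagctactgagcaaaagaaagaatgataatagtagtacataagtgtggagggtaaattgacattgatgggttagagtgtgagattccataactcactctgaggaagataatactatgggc
chr21 chain, array site, chr21:10708189-10708463: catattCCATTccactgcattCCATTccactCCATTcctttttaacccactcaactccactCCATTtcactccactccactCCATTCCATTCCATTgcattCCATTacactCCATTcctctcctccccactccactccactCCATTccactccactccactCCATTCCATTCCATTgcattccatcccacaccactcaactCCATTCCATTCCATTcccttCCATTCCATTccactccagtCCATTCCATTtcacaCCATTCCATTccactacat
chr2 array site, chr2:46876380-46876679: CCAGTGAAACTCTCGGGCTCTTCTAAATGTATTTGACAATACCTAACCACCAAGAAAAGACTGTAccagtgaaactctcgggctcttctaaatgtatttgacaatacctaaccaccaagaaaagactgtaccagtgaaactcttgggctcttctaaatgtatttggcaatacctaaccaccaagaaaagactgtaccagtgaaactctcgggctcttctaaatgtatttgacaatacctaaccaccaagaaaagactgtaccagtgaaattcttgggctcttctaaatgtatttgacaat
Like the sequences of the chr12 chain and of CALD1 and COL5A2, most chain sites were neither a tandem array nor held a short tandem repeat tract. The arrays of chr21 and chr2 show the exceptions. Outside arrays, 50.0% of the central 200 bp of chain sites held the pentamer on either strand. The share was 49.5% in other autosomal sites and 43.8% in 200 bp taken from the middle of the gaps between sites of a chain.

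The chains were rows of separate narrow sites. They held a median of 13 sites, with an interquartile range of 11 to 17 and a highest value of 65. Their spans had a median of 41.1 kb, with an interquartile range of 33.1 to 55.7 kb and extremes of 11.0 and 171 kb. Together they covered 10.0 Mb, 0.364% of the known autosomal sequence. Within the spans there were 328 sites per Mb, against 9.17 per Mb over the autosomes. The sites themselves covered 12.8% of the spans, and the rest was the gaps between them. Even so, the density of single chains differed widely, from 1.66 to 10.9 sites per 10 kb with a median of 3.27. No chain lay in the outer 2 Mb of a chromosome arm, and none held unknown bases.

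**Figure D1:**
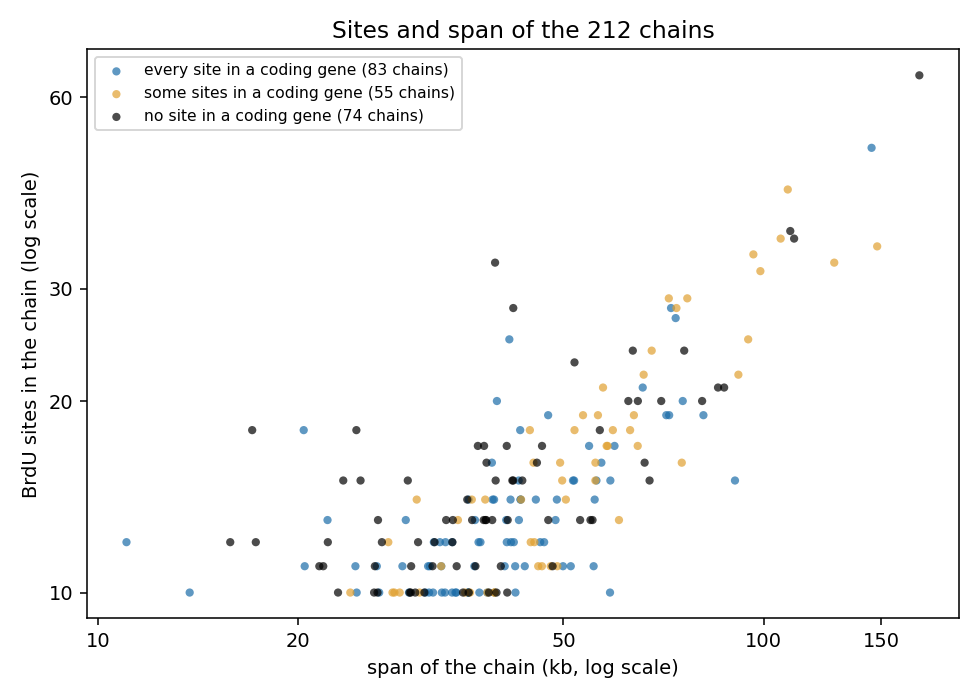
Each point is 1 of the 212 chains, with its span in kb on a log x axis and its number of BrdU sites on a log y axis, coloured by whether all, some or none of its sites lay in a protein-coding gene. Longer chains held more sites in all 3 classes, and the chain with 65 sites over 171 kb stands at the upper right. The points to the upper left, with many sites over a short span, include the chain of 33 sites over 39.5 kb on chromosome 21.

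Near the thresholds the chains formed a continuum. There were 41 chains of 10 sites, with a median span of 33.2 kb, and 54 runs of 9 sites just outside the rule, with a median span of 28.4 kb. Of the gaps at 423 chain ends, the lowest was 10.04 kb, 62 were under 11 kb and 303 under 20 kb. A gap shared by neighbouring chains was counted for both. The ends of many chains were therefore set by the limit of 10 kb.

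The chains were unevenly spread over the chromosomes. Chromosome 1 held 28, chromosome 2 held 25, chromosome 5 held 19 and chromosome 4 held 18. Per length, chromosome 15 was highest with 16.5 chains per 100 Mb, and 28.0% of its sites lay in chains, followed by chromosome 19 with 21.9%. On chromosomes 16 and 10 the shares were 2.15% and 2.23%. All 7 chains of chromosome 19, with 130 sites, lay in a single stretch of 530 kb at chr19:42764415-43294127. The coding genes in it were pregnancy-specific glycoprotein genes, and 47.8% of the 31-mers of its chain sites occurred once in the genome. The high share of chromosome 19 thus came from 1 region.

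Chains also lay close to each other. Of the 190 chains with a further chain downstream on the same chromosome, 94 had it within 250 kb. Joined at this distance, which was chosen after the values were seen, the 212 chains formed 118 groups. In 68 of them the chain was alone, whereas 50 groups of at least 2 chains held 144 chains and 2330 sites. The group at chr1:94182478-94878753 held 7 chains with 113 sites, and its chain sites reached ARHGAP29 and SLC44A3. At chr7:116243298-116669319, 4 chains with 100 sites lay over TES, CAV2 and CAV1. The group at chr15:48591874-48943402 held 5 chains with 79 sites and reached FBN1, CEP152 and SHC4. Thus many chains were parts of wider dense stretches, broken by gaps of over 10 kb.

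The chain with the most sites was also the longest, and it lay outside coding genes. It covered chr12:65565796-65736934, with 65 sites over 171 kb and gaps between 74 and 9758 bp with a median of 1773.5 bp. No coding gene reached into it. The nearest, MSRB3, which encodes a methionine sulfoxide reductase, ended 74.4 kb away. The lncRNA genes MSRB3-AS1 and LINC02454 and 1 unnamed lncRNA gene overlapped it, and 45 of its 65 sites lay in an annotated gene. The next chain, chr15:70833264-70978349, held 50 sites over 145 kb. All of them lay in coding genes. LRRC49, a subunit of a tubulin polyglutamylase, held 43, LARP6, which binds collagen mRNAs, held 7, and THAP10, a zinc finger protein gene, held 4, with some sites shared between overlapping genes.

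Of the other 8 chains among the 10 with the most sites, 5 reached coding genes. In the chain at chr7:116243298-116349255, CAV2, a coat protein of caveolae, held 24 of 36 sites, and TES, which encodes the focal adhesion protein testin, held 5. SOCS5, a suppressor of cytokine signalling, held 28 of 34 sites at chr2:46671794-46768217. CALD1, the actin-binding caldesmon, held 24 of 33 sites at chr7:134705252-134832770. AKAP13, an anchoring protein for protein kinase A, held 13 of 35 sites at chr15:85281254-85429175. CAV2, SOCS5, CALD1 and AKAP13 all lay on the plus strand, and each of these chains began before the annotated start of the gene and ended inside it. For CAV2 this start was that of its annotated extent of 221 kb, and all of its chain sites lay outside its main transcript. At chr19:43082301-43190897, 9 of 43 sites lay in the pregnancy-specific glycoprotein genes PSG5, with 8, and PSG2, with 1. Only 51.3% of the 31-mers of these sites occurred once in the genome. The remaining 3 chains held no coding gene. The one at chr15:39070192-39179733 had 37 sites, all inside lncRNA genes, and the one on chromosome 21 consisted largely of tandem arrays. The third, on chromosome 8, had 36 sites.

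**Figure D2:**
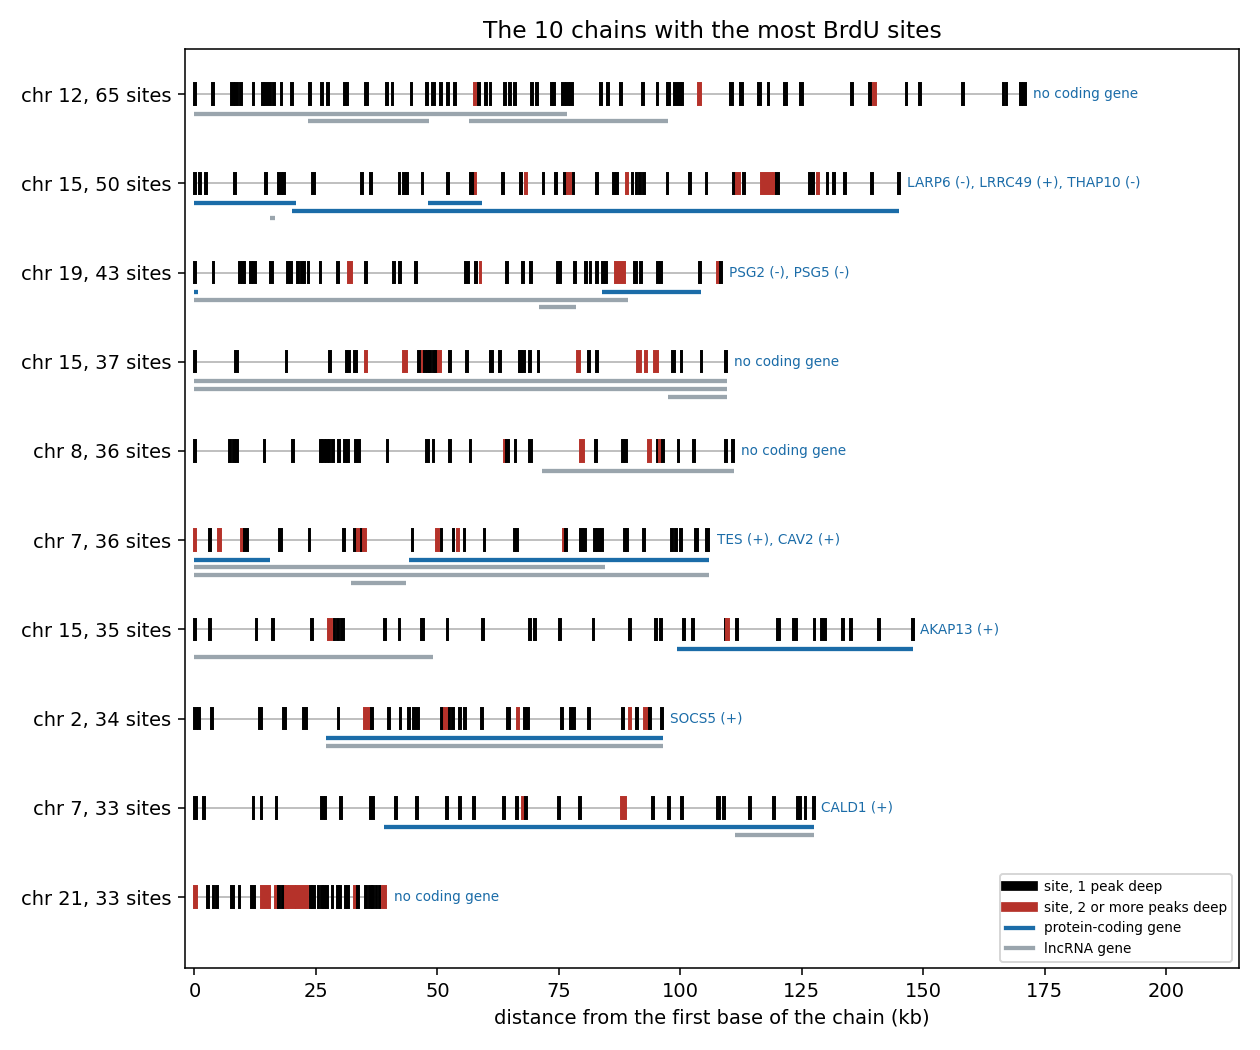
Each row is 1 of the 10 chains with the most sites, drawn to scale by distance in kb from its first base. Black boxes are sites 1 peak deep and red boxes sites where 2 or more peaks overlapped, with blue lines for protein-coding genes (strand in parentheses) and grey lines for lncRNA genes. Sites were spread along each chain up to 171 kb, and the chain with 33 sites on chromosome 21 was packed into 39.5 kb.

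Chains lay both inside and outside genes. In 83 chains all sites were in a protein-coding gene, in 55 some were, and in 74 none was. These classes held 1151, 974 and 1168 sites, and their median spans were 40.8, 50.4 and 38.2 kb. Altogether, 52.0% of chain sites were inside a coding gene, against 53.0% of the other autosomal sites. Coding genes made up 54.7% of the chain spans and 45.3% of the autosomes. With genes of all annotated types, the shares of sites were 70.8% and 68.0%. By the share inside coding genes, chain sites differed little from the rest.

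The share depended on how far a gene was taken to extend. GENCODE includes long alternative transcripts in the extent of a gene. When only the main transcript counted, 40.4% of chain sites and 46.9% of other sites were inside a coding gene. This applied to single genes too. All 51 chain sites in CAV2 lay outside its main transcript, since its annotated extent was 221 kb and the introns of the main transcript 5.85 kb. BCAR3 had 44 such sites, C12orf75 23 and CWC27 21.

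The 74 chains without a site in a coding gene were seldom far from one. Their distance to the nearest coding gene had a median of 43.6 kb, with 39 chains within 50 kb and 4 over 1 Mb away. An lncRNA gene lay within the span of 32 of them, and 36 had a site in an annotated gene of some type.

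In all, 142 of 19111 autosomal coding genes overlapped a chain site, or 0.743%. They were long, with a median of 103 kb, whereas all coding genes had a median of 27.9 kb and those with any BrdU site 82.5 kb. No adjustment for gene length was made. Of the 142 genes, 74 were over 100 kb, 93 held at least 10 chain sites and 9 held 1. Thus a gene that was reached by a chain usually carried much of it.

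CAV2 and BCAR3 held the most chain sites. CAV2 had 51 in 2 chains and BCAR3, an adaptor protein gene linked to antiestrogen resistance, 50 in 3 chains. SHROOM3, which organizes apical actin and constricts epithelial cells, had 46 in 4 chains. All 46 lay in its main transcript, between 0.272 and 0.905 of the gene's length from its start. CWC27, a spliceosome-associated cyclophilin, had 44 in 3 chains and LRRC49 43 in a single chain.

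The next genes had fewer chain sites, but some were packed more tightly. SOCS5 had 34.4 chain sites per 100 kb of gene, the highest of the 20 genes with the most chain sites, followed by CEP152, a centriole duplication protein, with 26.5 and USP47, a deubiquitinase, with 23.2. CAV2 had 23.1. In SOCS5, ARHGAP29 and CEP152, every BrdU site of the gene was a chain site, with 28, 27 and 26. In MKLN1, which encodes muskelin, it was 23 of 50, and in SYN3, a synapsin gene, 25 of 53. A gene with chain sites could therefore have all of its BrdU sites in chains or carry as many outside them.

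The chain sites took different places in different genes. All 29 in SYNPO2, an actin-binding protein, and all 22 in GSK3B, a kinase of glycogen metabolism and Wnt signalling, lay in the first intron of the main transcript. SOCS5 had 22 there, ERBIN, a scaffold protein that binds ERBB2, 16 and CALD1 15. In contrast, all 37 in C8orf34 and all 25 in SYN3 were in later introns, and so were 39 of the 46 in SHROOM3. PTK2, the focal adhesion kinase, was split between both, with 11 in the first and 11 in later introns. ARHGAP29, a GTPase-activating protein, had 2 in the first intron and 12 in later ones. ENSG00000273269, a coding gene with no symbol, had 25 chain sites, but 4 of them lay in this gene alone and the rest also in an overlapping coding gene.

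For position, 1642 chain sites that lay in exactly 1 coding gene were used. Their median relative position, from 0 at the gene start to 1 at its end, was 0.453, against 0.472 for 10935 other sites. Divided into 5 equal parts, the gene held 24.2, 20.8, 19.9, 21.9 and 13.3% of the chain sites from start to end, and 20.3, 21.9, 20.9, 19.1 and 17.9% of the other sites. By these counts chain sites had a higher share in the opening part and a lower one in the closing part of a gene. This depended on how chains were built. In chains of exactly 10 sites the opening part held 17.5% and the median position was 0.527, and with gaps of at most 5 kb the median position was 0.597. Without the 5 genes with the most chain sites, left out after the values were seen, the opening part held 25.2% and the closing part 12.9% of 1412 sites.

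The first intron of the main transcript held 380 of the 1642 chain sites, or 23.1%, against 21.3% of other autosomal sites. Of the 1567 chain sites in 1 gene that overlapped no exon, the share was 24.3%. Later introns held 807 chain sites. With sites outside the main transcript left out as well, a choice made after the values were seen, the first intron held 32.0% of the intronic chain sites and 25.2% of the others. First introns made up 21.4% of the intron length of the host genes of the chain sites. In chains of exactly 10 sites, 21.4% of intronic sites were in the first intron. When chains were built with gaps of at most 5 kb, the share of sites in 1 gene and over no exon fell from 24.3% to 14.7%. Exons of the main transcript were overlapped by 75 chain sites, or 4.57% against 3.30% elsewhere. Of the 75, 27 were in the chains with under 50% unique 31-mers that are described further on, and without these chains the share was 3.10%. A further 23.1% of chain sites and 12.3% of the others lay in a gene but outside its main transcript, so intron numbers could be given only for the rest.

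**Figure D3:**
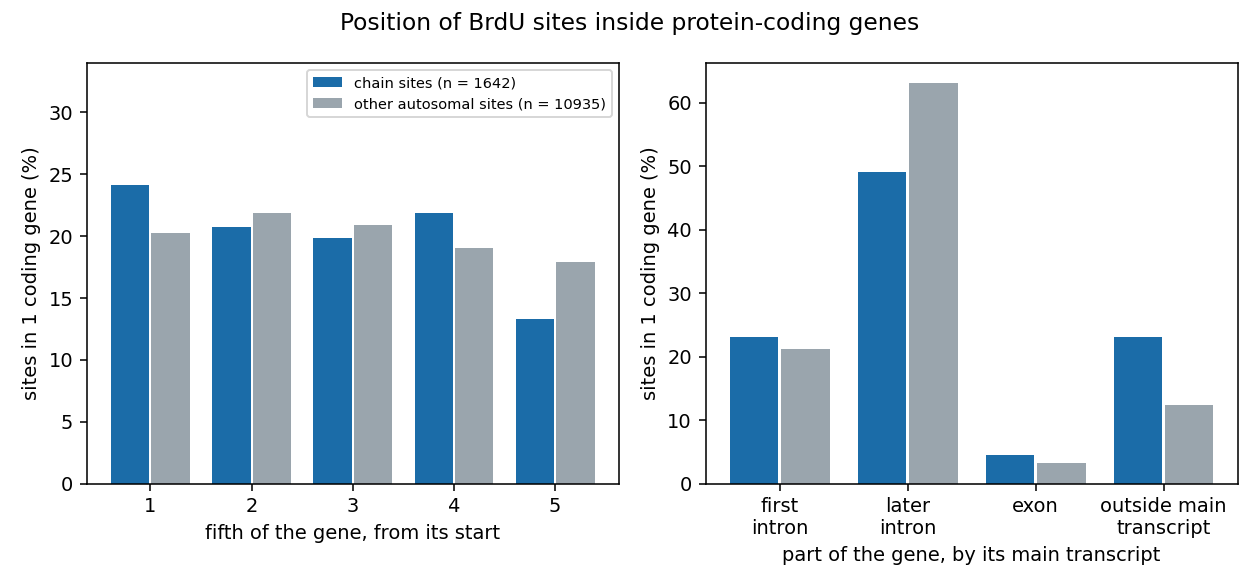
Percent of BrdU sites in exactly 1 protein-coding gene, for 1642 chain sites (blue) and 10935 other autosomal sites (grey), by equal parts of the gene from its start (left) and by the part of the main transcript (right). Chain sites were at 24.2% in the opening part and 13.3% in the closing part, and 23.1% lay outside the main transcript.

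With exons of all annotated genes counted, 187 chain sites, 5.68%, overlapped an exon, against 5.03% of other sites. Exons made up 4.89% of the chain spans. Start sites of coding genes were inside some chains. There were 61 in 50 chains, and the nearest chain site was a median of 1118 bp and at most 3875 bp away. A site lay over the start in 3 genes, ERBIN, PSG5 and PSG7, and within 500 bp in 11. Sites covered 12.8% of the chain spans, so most positions in a chain had no site over them. Start sites were not compared with other positions.

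Genes of both orientations held chains. Of 117 chains with sites in exactly 1 coding gene, the gene was on the plus strand in 61 and on the minus strand in 56. By sites, 904 of 1642 were in plus-strand genes, or 55.1%, whereas it was 51.2% for other autosomal sites and 50.5% of coding genes were on the plus strand. This difference came with a few genes, since the share was 51.3% without CAV2, BCAR3, SHROOM3, CWC27 and LRRC49.

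A further 21 chains had sites in at least 2 coding genes, and in 10 of them, 47.6%, all of these genes were on the same strand. The 95% exact Clopper-Pearson interval for 21 chains was 25.7 to 70.2%, which covers counting error only. Of neighbouring pairs of such genes, 7 overlapped with divergent and 4 with convergent orientation, and 7 overlapped on the same strand. Pairs that did not overlap were on the same strand in 7 cases and convergent in 2. The direction in which forks entered these genes was not in the list, so co-directional and head-on encounters could not be told apart.

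The spacing within chains was irregular. The 3081 gaps had a median of 1966 bp, an interquartile range of 624 to 4582 bp and extremes of 5 and 9986 bp. The 8303 gaps of at most 10 kb outside the chains had a median of 2386 bp. Gaps under 500 bp made up 21.6% inside and 21.7% outside, and gaps over 9 kb 3.34% and 4.81%. The closest neighbours were therefore as frequent in a chain as elsewhere, and the long gaps were fewer.

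The gaps were shorter in the largest chains, without a steady order among smaller runs. The median gap was 2458.5 bp in runs of 2 to 3 sites, 2478 bp in runs of 4 to 6 and 2115 bp in runs of 7 to 9. It was 2192.5 bp in chains of 10 to 14, 1741 bp in chains of 15 to 19 and 1732 bp in chains of at least 20. Within a chain, the coefficient of variation of the gaps had a median of 0.901, from 0.440 to 1.63. A row of equally spaced sites would give a value near 0, and no chain came close to it. The chain with the lowest median gap, 169 bp, was at chr10:18552860-18573236 in NSUN6, an RNA methyltransferase gene, with 18 sites that covered 66.7% of its 20.4 kb.

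**Figure D4:**
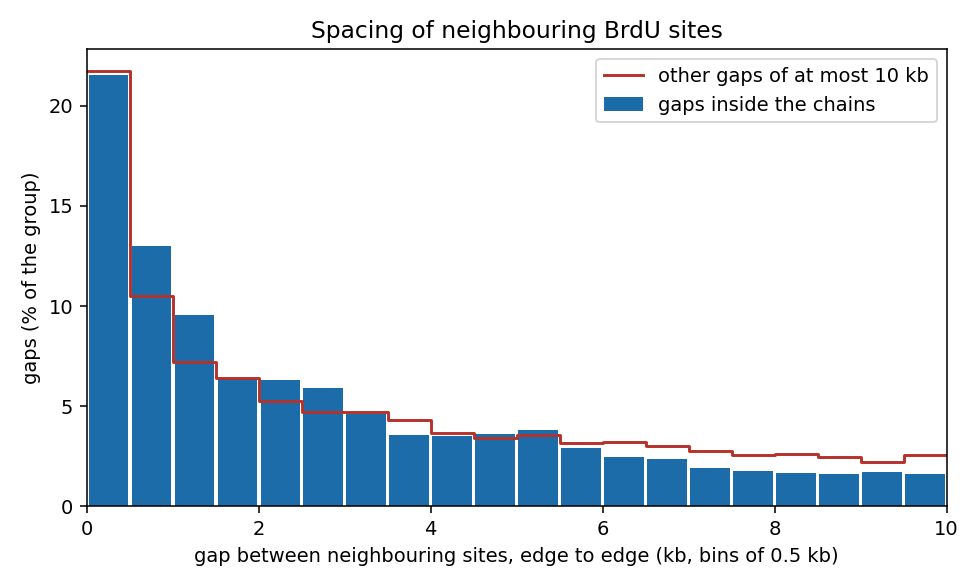
Percent of gaps in bins of 0.5 kb, from edge to edge of neighbouring sites, for 3081 gaps inside chains (bars) and 8303 other gaps of at most 10 kb (line). Both are highest under 500 bp, at 21.6% and 21.7%, and the line stands above the bars at long gaps.

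Chain sites were wider than the others but were less often called more than once. Their median width was 320 bp, against 278 bp elsewhere. A single peak made up 83.4% of chain sites and 78.8% of other sites. Where peaks overlapped, the depth of a site was counted as the largest number of peaks over one base. A depth of at least 2 was found in 16.6% of chain sites and 21.2% of other sites, and of at least 3 in 0.911% and 4.69%. Without tandem arrays the latter shares were 0.842% and 3.41%. In the runs of 9 sites just outside the rule, 20.0% had a depth of at least 2 and 1.03% of at least 3. Sites alone, with no other within 10 kb, had 21.5% and 6.59%. The low share at a depth of at least 3 was therefore not particular to the chains. Hence the peaks of a chain mostly lay beside each other and not on top of each other. This was in part set by the rule, since a chain needs at least 10 separate sites. Most of the other sites were single peaks too. Since the list named no timepoint, whether neighbouring sites of a chain came from the same timepoint was unknown.

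Chain sites were slightly more AT-rich than their surroundings. Their mean AT content was 61.0% with an SD of 4.55 over 3293 sites, against 60.2% with an SD of 5.69 for other sites. Without tandem arrays the means were 61.1% and 60.7%. The medians, with arrays kept, were 61.7% and 61.6%. The spans had 60.3% and the autosomes 59.0%. Chain by chain, sites were more AT-rich than the gaps between them in 134 of 212 chains, and the median difference over all chains was 0.813 percentage points. The dinucleotide CpG occurred 5.76 times per kb in chain sites, 8.29 times in the gaps and 7.03 times in other sites.

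Hexamers were counted together with their reverse complement. In chain sites outside arrays, AAAAAA was the most frequent with 3.29 per 1000, but the gaps between the sites held 7.14. The hexamer AATGGA had 2.51 in these sites, 1.40 in the gaps and 1.59 in other sites. CACACA had 2.09 in chain sites and 1.43 in the gaps, whereas other sites had 7.48. This hexamer was thus rarer in chain sites than in other sites, but more frequent than in the gaps between them.

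Tandem arrays were few and concentrated. A site was called an array when at least 70% of its bases matched the base at one fixed distance of up to 120 bp. Of chain sites, 85 were arrays, or 2.58%, against 5.65% of all autosomal sites and 6.11% of the others. It was 1.65% in the runs of 9 sites just outside the rule and 7.84% in sites alone, so a low share was not particular to the chains. Of the 85, 81 were in 5 chains. Without these chains the share was 0.126%, and 9 of the 212 chains held any array.

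Of these 5 chains, 2 were on the short arm of chromosome 21. The one at chr21:10699078-10738562 had 28 arrays among 33 sites and that at chr21:7915842-7957888 had 25 among 28. In all of these arrays the distance of the best match was a multiple of 5 bp, and AATGG or its reverse complement covered a median of 32.1% and 40.0% of their bases. The chain at chr22:10711848-10749858 had 11 arrays among 17 sites, with a median of 48.5%. In the NSUN6 chain there were 5 among 18, with 53.1%. The chain at chr6:160841192-160858244 was of another kind, with 12 arrays among 18 sites, a median distance of 23 bp and a median of 0.670% for the pentamer. The array of highest self-match, 97.6% at 65 bp, is the chr2 sequence printed above, and it was the single array of its chain.

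Short tandem repeat tracts, with a unit of at most 6 bp repeated over at least 20 bp, were found in 154 chain sites. This was 4.68%, against 4.41% of all autosomal sites and 4.37% of the others. A 5 bp unit was repeated in 75 of them, a 2 bp unit in 42 and a 6 bp unit in 17. The 5 array chains held 67 of the 154 tracts, and without these chains the share was 2.74%.

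Some chains stood on sequence that occurs more than once in the genome. In chain sites, 85.6% of all 31-mers occurred once, against 82.4% in other sites, and 174 chains were above 80%. In 14 chains with 219 sites, under 50% occurred once. They included NBPF14 and NBPF10 on chromosome 1, genes of the neuroblastoma breakpoint family, and the shortest chain, which had 12 sites over 11.0 kb in the mucin gene MUC12 at chr7:100992639-101003681 and 4.43% unique 31-mers. In 3 chains, NBPF14, NBPF10 and MUC12, 43 sites shared at least 50% of their 31-mers with another site of the same chain. Reads from such copies cannot be placed by sequence alone, and the part this plays in these chains was not tested.

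Gene lists were read against the chains, by role. The list of fibroblast matrix and cytoskeleton genes had 4 of 44 members with chain sites, or 9.09%, against 0.743% of all coding genes. CALD1 had 24 sites, COL5A2, a chain of type V collagen, 19, LAMC1, the laminin gamma 1 chain, 16 and FBN1, the microfibril protein fibrillin 1, 15. COL5A2 on the minus strand had its chain sites between 0.0105 and 0.423 of its length from the start, 10 of them in the first intron of the main transcript, and the other 9 outside that transcript. The genes of this list had a median length of 68.6 kb, against 27.9 kb for all coding genes.

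More members of this list lay near a chain without a site of it. Within 250 kb, a distance chosen after the values were seen, were 13 of 44 genes, or 29.5%, against 3.19% of all coding genes. Both shares include genes with a chain site, which were 4 of the 13 in this list. The nearest without a chain site was TNC, which encodes tenascin C, 6.03 kb away. The collagen genes COL6A3 and COL1A2 lay 27.6 and 31.6 kb away, and FN1, the fibronectin gene, 43.3 kb away. TPM1, COL3A1, ACTA2, THBS1 and TLN1 followed, at 94.6, 130, 146, 190 and 216 kb. No expression value was used here, so whether these genes were transcribed in the cells was not measured.

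The list of genes at common fragile sites, which are very long and prone to breaks under replication stress, had 0 of 27 members with a chain site and 0 within 250 kb. Its median gene length was 1380 kb. Of 49 genes of DNA replication and repair, 0 had a chain site. The background share of 0.743% amounts to less than 1 gene in lists of this size. That share was taken over all coding genes, with a median length of 27.9 kb, and was not adjusted for length. No share for genes as long as those at fragile sites was at hand, so nothing is read from the counts of 0.

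**Figure D5:**
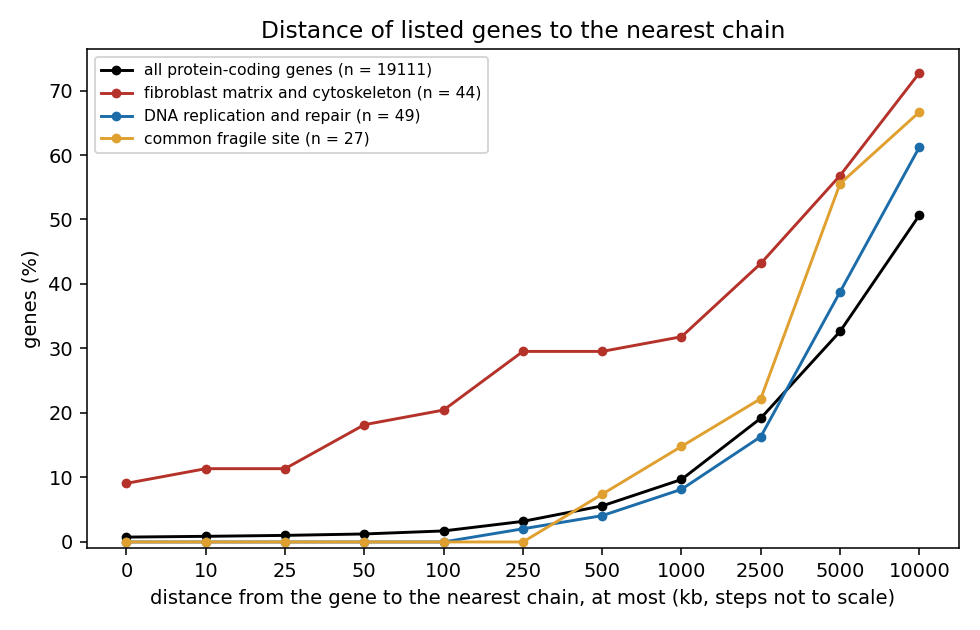
Cumulative percent of genes whose distance to the nearest chain is at most the value on the x axis, in kb with steps not to scale, for 44 fibroblast matrix and cytoskeleton genes, 49 DNA replication and repair genes, 27 common fragile site genes and 19111 autosomal protein-coding genes. At 250 kb the fibroblast list was at 29.5% and all coding genes at 3.19%, and no gene of the fragile site list was within that distance.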

How the data were processed

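The list of BrdU peaks was analysed. Alignment to hg38 was done by the authors with Bowtie2. For each of 5 timepoints they then called peaks over Input with MACS2 v2.1.0 (-m 8 30, -p 0.00001). The deposited values are positions in bp, pooled over timepoints, without normalization or read counts. The BrdU-Seq had 2 repeats, and the way they entered the list is not given in the sources used here. Library depth, and with it the precision of a peak, is therefore unknown. No columns of other samples were present.

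The starts in the list count from 0, and those printed count from 1. No peak ran beyond a chromosome end. Peaks were merged, chained at 10 kb and kept at 10 sites with Python 3.11.15, numpy 2.4.6 and pandas 2.3.3, checked against bedtools on simulated data, as were the searches for arrays, tracts and 31-mers. Genes, exons and main transcripts came from GENCODE version 44, and an overlap of 1 bp counted. Sequences were read from hg38 without repeat masking. The genes named were those of the 10 chains with the most sites, of the longest, shortest and most closely spaced chain, the 20 coding genes with the most chain sites and the members of 3 lists with a chain site. Genes named with groups of chains, near chains, over start sites or outside main transcripts, and the NBPF genes, were chosen after their values were seen, as were the 5 genes left out in the text and most of the printed sites. The members, lists and measures were chosen with earlier results of these data known. Some genes and sequences that these rules select are not reported here. No test was made. The alternatives were gaps of 5 and 20 kb, minima of 8 and 15 sites, other merging, gene sets and repeat limits, and leaving out the chromosome with the most chains.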

Additional observations from a re-analysis of the deposited data

How the results depend on the processing

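No paired analysis was possible because peaks carry no sample or replicate name, and for the same reason no replicate could be left out. The 12 summary values were recomputed under 19 settings. Of 114 values, 64 stayed within 1.5 times of a count or within the 95% interval of the reported value. These intervals count sites, gaps or chains as independent although sites of a chain share their region. They may thus be too narrow and serve only as a yardstick. With gaps of 5 kb there were 66 chains and 893 sites, a median span of 20.9 kb, 38.6% of sites in coding genes, 14.7% in first introns among sites in 1 gene and over no exon (24.3% at 10 kb), a relative position of 0.597, gaps of 1000 bp, 8.73% arrays, 10.3% tracts and 20.8% at a depth of at least 2. With 20 kb there were 343 chains and 7361 sites, 82.3 kb, gaps of 3032 bp, 60.8% AT and 1.86% arrays. At least 8 sites gave 327 chains of 35.6 kb. At least 15 gave 85 chains, 1828 sites, 58.3 kb, 46.6% in coding genes, gaps of 1736 bp, 4.49% arrays and 6.62% tracts. Merging peaks up to 1 kb apart gave 101 chains, 1400 sites, 56.1 kb, 56.5% in coding genes, a position of 0.486, gaps of 3496 bp, 0.786% arrays, 6.50% tracts and 18.1% at a depth of at least 2. Peaks without merging gave 366 chains, 5770 peaks, 32.7 kb and 60.2% AT. All annotated genes gave 70.8% in genes, 28.3% in first introns and 20.3% of chains on 1 strand, and gaps between midpoints 2385.5 bp. A self-match of 60% gave 3.64% arrays and of 80% 0.121%. Tracts of 12 bp gave 29.9% and of 30 bp 1.73%. The next 3 settings were added after the data were seen. Main transcripts gave 40.4% in coding genes, with sites in at least 2 genes counted as inside, and 32.0% in first introns. Both are also given in the text. Leaving out the 5 array chains gave 0.126% arrays and 2.74% tracts, by construction. Without chains under 50% unique 31-mers, the last of these, or without chromosome 1, none of the 12 values moved. The cause of the other shifts was not tested.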
